A study of Homo sapiens with 6 samples.

Results

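The mRNAs of splicing factors and heterogeneous nuclear ribonucleoproteins (hnRNPs) were examined for sites attached to AEG-1 in 6 CLIP libraries. They were taken by gene symbol, as every listed mRNA whose symbol began with HNRNP, SRSF, RBM, SF3A, SF3B, SNRP, SNRNP, PRPF or SRRM. This gave 102 of the 8204 genes that held a site in any library, each represented by 1 RefSeq mRNA. The name rule used no measured value beyond that presence in a file. RBM stands for RNA-binding motif, so the 31 RBM genes include proteins whose known work lies outside splicing.

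AEG-1, encoded by MTDH, sits in the membrane of the endoplasmic reticulum. The cell line AEG-1-14, of HepG3 background, which the labels call hepatoblastoma, stably expressed AEG-1 tagged with HA at the C-terminal end, and all libraries came from it, the controls included. The PAR-CLIP AEG1 library (n = 1) came from cells irradiated on ice at 365 nm, and the PAR-CLIP negative control (n = 1) received no UV. The HITS-CLIP AEG1 libraries (n = 2) came from cells irradiated at 254 nm, and the HITS-CLIP negative controls (n = 2) received no UV. In CLIP the light bonds RNA to protein, the protein is precipitated, here through its HA tag, and the RNA fragments that stay attached are sequenced. A tagged, stably expressed protein in 1 line is what was measured, and since the labels do not state that the HITS-CLIP replicates were grown separately, the spread between them may be technical.

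hnRNPs coat nascent transcripts in the nucleus and steer splicing, export and stability, and several of them shuttle to the cytoplasm. SR proteins (SRSF genes) bind exons and recruit the spliceosome, which is built from small nuclear RNAs with their Sm and particle-specific proteins (SNRP and SNRNP genes), the SF3A and SF3B complexes that recognise the branch point, and the PRPF proteins of its catalytic core and assembly. All of these are soluble proteins made without a signal peptide, so their mRNAs are not classed with those of secreted and membrane proteins, which are translated at the endoplasmic reticulum.

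Each file listed called sites with a start and end on the mRNA and the authors' deposited log2 score, and held no read counts, so read depth is unknown. The PAR-CLIP AEG1 library held 60085 sites and its control 121. The HITS-CLIP AEG1 libraries held 6378 and 5651 sites and their controls 60 and 90. MTDH itself held 12 PAR-CLIP AEG1 sites and 10 and 8 HITS-CLIP AEG1 sites, against 1 site in the PAR-CLIP control and none in the HITS-CLIP controls. Of 8 hepatic marker mRNAs (among them AFP, ALB and APOB), 8 held sites in each of the 3 AEG1 libraries, against 3 in the PAR-CLIP control and 2 in each HITS-CLIP control. ALB, the gene of serum albumin, held 3 sites in PAR-CLIP AEG1 against 13 in its control, and 5 and 10 in HITS-CLIP AEG1 against 11 and 9 in the controls. Of 8 mRNAs that mark other cells, among them PTPRC of blood, PECAM1 of endothelium and COL1A1 of connective tissue, CD14 alone held any, with 6 PAR-CLIP AEG1 sites and 1 and 0 HITS-CLIP AEG1 sites.

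Sites on the splicing and hnRNP mRNAs were present in all AEG1 libraries and numbered 3 in all without UV. PAR-CLIP AEG1 held 877 sites on 101 of the 102 mRNAs, against 1 site on 1 mRNA in its control. HITS-CLIP AEG1 held 45 sites on 23 mRNAs in replicate 1 and 32 sites on 20 mRNAs in replicate 2, against 0 sites in the first HITS-CLIP control and 2 sites on 2 mRNAs in the second. Both HITS-CLIP AEG1 libraries therefore lay above both controls. The means were 38.5 ± 9.19 sites in HITS-CLIP AEG1 and 1 ± 1.41 in the controls (SD, n = 2 each), a difference of 37.5 (exact permutation test over libraries, two-sided, p = 0.333, the smallest that 2 against 2 libraries allows). The PAR-CLIP difference has no replicate check.

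The share of each library's sites that fell on these mRNAs did not show that difference. It was 0.706% and 0.566% in HITS-CLIP AEG1, against 0% and 2.22% in its controls (exact permutation test, two-sided, p = 1, n = 2 each). The control shares rest on 0 of 60 sites, whose exact 95% interval reaches 5.96%, and on 2 of 90 sites. The difference of the mean shares, HITS-CLIP AEG1 minus control, was -0.475 percentage points, and 0.636 without the second control. The share was 1.46% in PAR-CLIP AEG1 (exact 95% binomial interval 1.37 to 1.56, counting error only) and 0.826% in its control (0.0209 to 4.52), where it was 1 site of 121. In the PAR-CLIP AEG1 library it lay above both HITS-CLIP AEG1 shares, whose intervals were 0.515 to 0.943 and 0.388 to 0.798.

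The control sites on these genes were 1 each on HNRNPU, HNRNPA2B1 and RBM10, so 3 of the 102 mRNAs (2.94%) held one, against 1.76% of all 8204 genes. On HNRNPU, the scaffold-attachment hnRNP, the PAR-CLIP control site ran from nt 1373 to 1436 with a score of 1.35, inside a PAR-CLIP AEG1 site from nt 968 to 1719 with a score of 8.09. A HITS-CLIP AEG1 replicate 1 site, from nt 1394 to 1454, also overlapped it. On HNRNPA2B1, an hnRNP that binds pre-mRNA and sorts RNA for transport, the second HITS-CLIP control held a site at nt 1706 to 1753 with a score of 0.87. It overlapped the HITS-CLIP AEG1 replicate 2 site at nt 1719 to 1761, whose score was 1.45. On RBM10, a regulator of exon skipping, the second HITS-CLIP control held a 19-nt site at nt 431 to 449 with a score of 5.88, and neither HITS-CLIP AEG1 library held a site on that mRNA.

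In HITS-CLIP, 14 of the 102 mRNAs (13.7%, exact 95% interval 7.71 to 22.0) held a site in both AEG1 replicates, against 16.1% of all 8204 genes. A site in either replicate was held by 29 of the 102 (28.4%), against 27.3% of all genes. Among genes with a PAR-CLIP AEG1 site it was 14 of 101 (13.9%), against 15.5% of all such genes. These shares lie near those of the whole list and are no result about these mRNAs. In PAR-CLIP AEG1 the 101 mRNAs with a site (99.0%) compare with 97.6% of all genes. RBMS1, an RBM-named protein known for binding single-stranded nucleic acid, was the mRNA without one, and its only site was a 19-nt HITS-CLIP AEG1 replicate 2 site at nt 1860 to 1878.

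By family, 8 of the 14 mRNAs with sites in both replicates were hnRNPs. The hnRNP mRNAs held sites in both replicates in 8 of 20 genes (40%, interval 19.1 to 63.9). None of 12 PRPF genes (up to 26.5%), none of 31 RBM genes (up to 11.2%) and none of 5 SNRNP genes (up to 52.2%) did, where the figure in brackets is the upper limit of the exact 95% interval. Between these ends lay SRSF with 1 of 11, SF3A and SF3B with 2 of 9, SNRP with 2 of 12 and SRRM with 1 of 2. Of the 31 RBM genes, 5 held a site in 1 replicate. The 12 PRPF genes held no site in either. No test was made between families.

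Among hnRNP mRNAs, HNRNPA2B1 and HNRNPU held most HITS-CLIP sites. HNRNPA2B1 held 12 sites in PAR-CLIP AEG1 and 4 and 5 in HITS-CLIP AEG1, against 0 in the PAR-CLIP control and 0 and 1 in the HITS-CLIP controls. HNRNPU held 17 sites in PAR-CLIP AEG1 and 5 and 2 in HITS-CLIP AEG1, against 1 in the PAR-CLIP control and 0 in each HITS-CLIP control. HNRNPL, which binds CA repeats, held 6 PAR-CLIP and 2 and 3 HITS-CLIP sites, and none in a control. HNRNPA1, the classical splicing repressor, held 7 PAR-CLIP and 3 and 1 HITS-CLIP sites, which are uncertain because HNRNPA1L2 is a near-identical copy. HNRNPA3, HNRNPUL2, HNRNPH3 and HNRNPK held 1 site in each HITS-CLIP replicate, beside 29, 14, 10 and 10 PAR-CLIP sites, and no control site. HNRNPF, which binds runs of G, held 15 PAR-CLIP sites and HNRNPH1 held 9, and neither held a HITS-CLIP site. HNRNPC, which binds runs of U, held 10 PAR-CLIP sites and 2 and 0 HITS-CLIP sites, and HNRNPCL1 is a near-identical copy of it.

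Outside the hnRNPs, 6 mRNAs carried HITS-CLIP sites in both replicates. SRRM2, a very large serine- and arginine-rich scaffold protein of nuclear speckles, held 42 PAR-CLIP sites and 8 and 3 HITS-CLIP sites, the most of these mRNAs in replicate 1. SF3B2, a subunit of the branch-point complex, held 14 PAR-CLIP and 3 and 3 HITS-CLIP sites, and SF3B3 of the same complex held 29 PAR-CLIP and 1 and 1 HITS-CLIP sites. SNRPB, which encodes Sm proteins B and B′, held 4 PAR-CLIP and 3 and 2 HITS-CLIP sites. SNRPD2, another Sm protein, held 5 PAR-CLIP and 1 and 1 HITS-CLIP sites. SRSF3, the smallest of the SR proteins, held 7 PAR-CLIP and 1 and 1 HITS-CLIP sites and was the only SRSF mRNA with a HITS-CLIP site. None of these 6 held a control site.

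Many PAR-CLIP sites did not bring HITS-CLIP sites with them. SNRNP200, the helicase that unwinds U4 from U6 RNA, held 42 PAR-CLIP sites, as many as SRRM2, and 1 and 0 HITS-CLIP sites. PRPF8, the scaffold at the catalytic centre of the spliceosome, held 32 PAR-CLIP sites over 87.5% of its length to the furthest site end and no HITS-CLIP site. SRSF1, the founding SR protein, held 16 PAR-CLIP sites and no HITS-CLIP site. SRRM1, a nuclear matrix splicing coactivator, and RBM12 each held 15 PAR-CLIP sites and no HITS-CLIP site. SNRPD3, an Sm protein, held 11 PAR-CLIP sites and no HITS-CLIP site. HNRNPUL1 and HNRNPA0, with 17 and 14 PAR-CLIP sites, each held a HITS-CLIP site in replicate 2 alone.

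**Figure D1:**
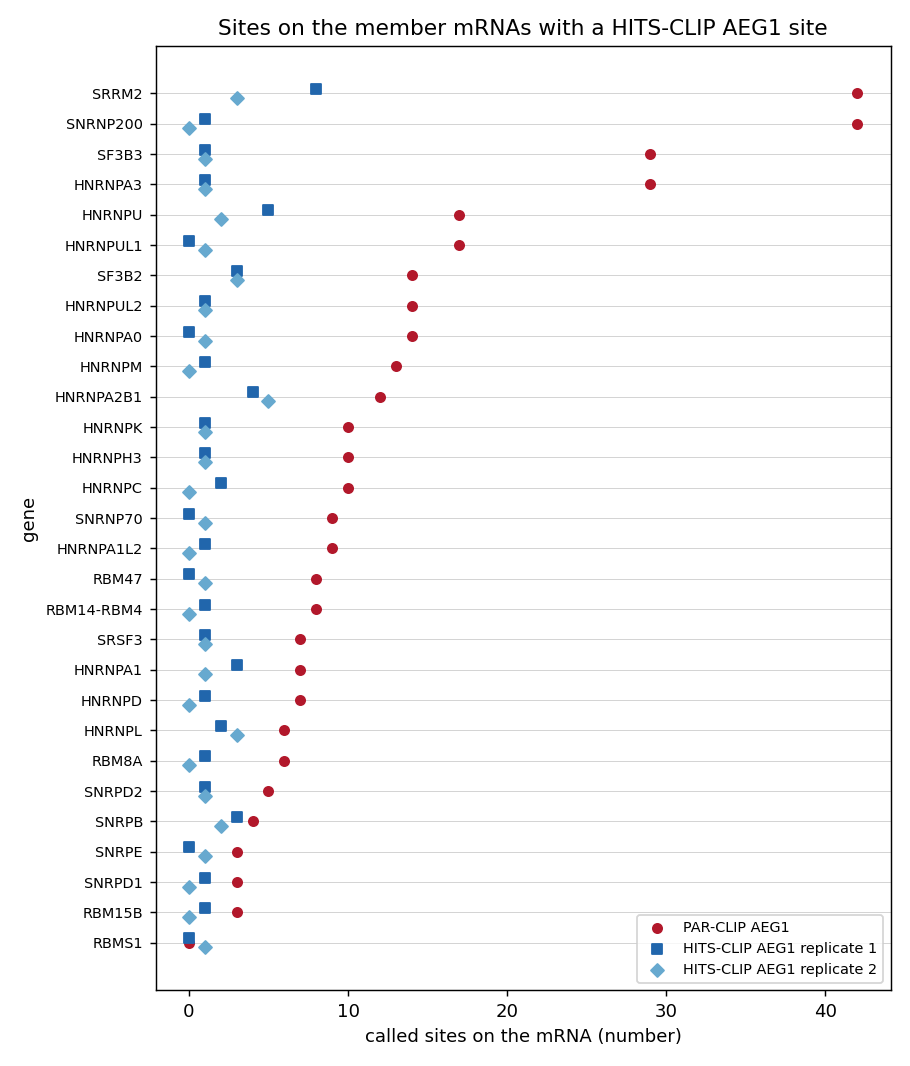
Number of called sites (x axis) on each of the 29 splicing and hnRNP mRNAs with a site in either HITS-CLIP AEG1 replicate (y axis), with circles for PAR-CLIP AEG1, squares for HITS-CLIP AEG1 replicate 1 and diamonds for replicate 2. PAR-CLIP reaches 42 sites on SRRM2 and SNRNP200, while HITS-CLIP stays at 8 or below, with SRRM2, HNRNPU and HNRNPA2B1 highest.

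The mRNAs with HITS-CLIP sites in both replicates also held more PAR-CLIP sites and longer cover by their medians. Their median was 11 PAR-CLIP sites (range 4 to 42, 14 mRNAs), against 8 for the 15 with a site in 1 replicate and 6 for the 73 with none. The same order held over all genes, with medians of 9, 6 and 4. The median length under PAR-CLIP sites was 1910.5 nt, 831 nt and 563 nt over the same 3 classes of these mRNAs. The median furthest site end was 2815.5, 2138 and 1960 nt, a value set by the sites themselves, and transcript lengths were not used here.

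By family medians, PAR-CLIP sites took up the largest percent of the length to the furthest site end on hnRNP mRNAs and the smallest on RBM mRNAs. In the 101 mRNAs with a PAR-CLIP site, the median length under these sites was 39.7% of the length to the furthest site end. Over all 8009 genes with a PAR-CLIP site it was 22.5%. It was higher, at 84.4%, in genes with RPL and RPS symbols and 51.4% in genes with EIF and EEF symbols. In DDX and DHX helicase genes it was 22.6%. By family it was 63.6% for hnRNPs, 54.0% for SNRP, 49.0% for the 2 SRRM genes, 48.7% for SRSF and 47.6% for SF3A and SF3B, but 27.7% for SNRNP, 20.0% for PRPF and 17.4% for RBM. In nt the order differed, with medians of 3798 for SRRM, 1535.5 for hnRNPs, 417.5 for RBM and 410.5 for SNRP. The median number of PAR-CLIP sites was 7 per gene against 5 over all genes, at median furthest site ends of 2094 and 2044 nt. The hnRNP mRNAs were covered most completely at HNRNPL (90.9%), HNRNPA1 (89.1%) and HNRNPA2B1 (85.0%). PRPF8 (87.5%) and PRPF19 (60.8%) stood above the other PRPF genes, which reached at most 29.7%. The furthest end comes from the same sites, so short or sparsely covered mRNAs can score high, and abundance of the mRNAs was not measured.

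**Figure D2:**
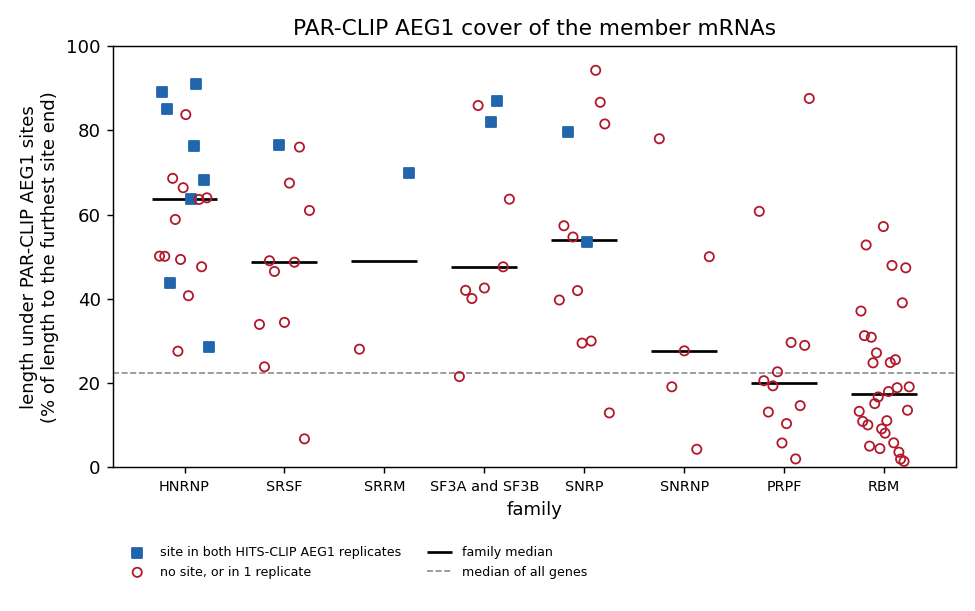
Length under PAR-CLIP AEG1 sites as a percent of the length to the furthest site end (y axis) for each of the 101 mRNAs with a PAR-CLIP site, by family (x axis). Filled squares had a site in both HITS-CLIP AEG1 replicates, open circles did not, black lines are family medians and the dashed line is the median of all genes, 22.5%. The hnRNP median is 63.6% and the PRPF and RBM medians, 20.0% and 17.4%, lie below the dashed line.

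Over both directions, a minority of the HITS-CLIP sites on these mRNAs recurred at the same place in the other replicate. Of 45 replicate 1 sites, 17 (37.8%, exact 95% interval 23.8 to 53.5) shared 1 nt or more with a site of replicate 2, against 63.2% of all replicate 1 sites. In the other direction it was 17 of 32 (53.1%, interval 34.7 to 70.9), against 71.3%. Over both directions 34 of 77 sites (44.2%) overlapped, against 67% of all sites, a figure in which genes with many sites weigh heavily. A gene with 1 HITS-CLIP site in all cannot show an overlap. Such genes gave 8 of the 45 replicate 1 sites and 6 of the 32 replicate 2 sites here. Over all genes they gave 478 of 6378 and 349 of 5651, a smaller part, so these shares are not like for like. Among genes with 2 to 3 HITS-CLIP sites in all, 5 of 9 replicate 1 sites on these mRNAs overlapped (58.2% over all genes) and 5 of 7 replicate 2 sites (64.4%). Among genes with 4 to 7 it was 7 of 16 (54.2%) and 7 of 11 (64.1%), and among genes with 8 or more, 5 of 12 (73.4%) and 5 of 8 (80.6%). By gene, 11 of the 14 mRNAs present in both replicates (78.6%, interval 49.2 to 95.3) had at least 1 overlapping pair of sites, against 88.2% of all 1321 such genes.

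Repeated sites are those that overlap by definition, and their ends varied. On HNRNPU, replicate 1 had sites at nt 602 to 698 and nt 1312 to 1359, and replicate 2 at nt 614 to 717 and nt 1297 to 1370. On SF3B3 the sites began at the same base, nt 2210, and ended at nt 2264 and 2287. On SRRM2, 2 sites recurred, at nt 5671 to 5733 and 5671 to 5725, and at nt 7377 to 7410 and 7374 to 7400. On HNRNPA2B1, 3 sites recurred, among them a 19-nt site at nt 2930 to 2948 with identical ends in both replicates and a pair at nt 908 to 945 and nt 854 to 947. On HNRNPA1 the overlapping sites lay at nt 204 to 259 and nt 161 to 249. On SRSF3 the sites lay at nt 220 to 279 and nt 232 to 275, and on HNRNPUL2 at nt 450 to 526 and nt 464 to 524.

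On HNRNPL, HNRNPK and SNRPD2 both replicates held sites, but none overlapped. On HNRNPL, replicate 1 had its sites at nt 1389 to 1454 and nt 1696 to 1741, and replicate 2 at nt 328 to 359, nt 543 to 576 and nt 605 to 642. All 5 lay under PAR-CLIP sites. On HNRNPK, a poly(C)-binding hnRNP, the replicate sites lay at nt 1256 to 1302 and nt 1369 to 1411, both within 1 PAR-CLIP site from nt 1221 to 1664. On SNRPD2 they lay at nt 504 to 545 and nt 351 to 400, under separate PAR-CLIP sites.

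**Figure D3:**
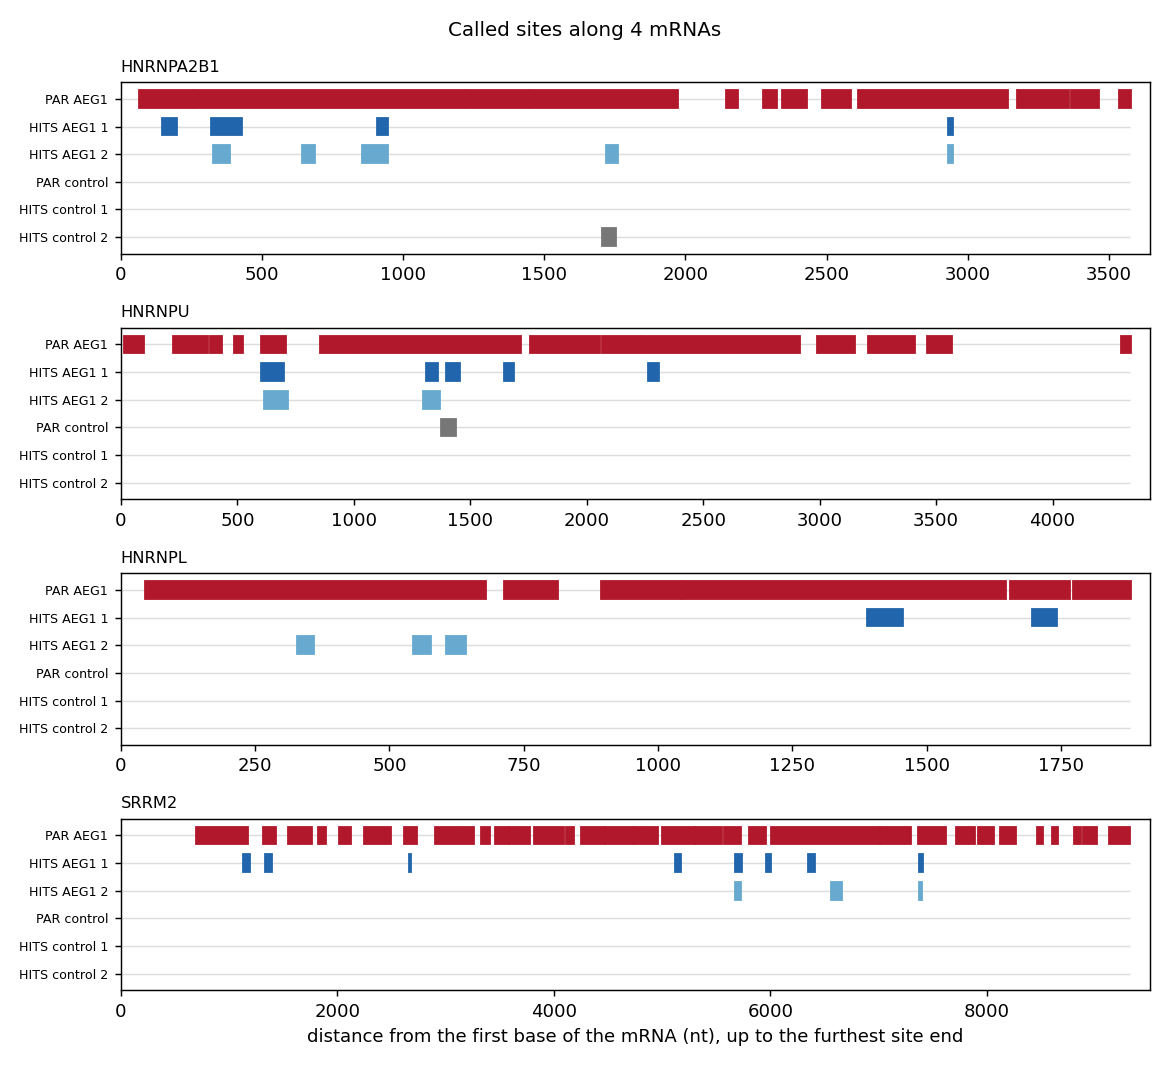
Called sites along the mRNAs of HNRNPA2B1, HNRNPU, HNRNPL and SRRM2, drawn to scale as distance from the first base of the mRNA in nt (x axis), with 1 row per library (y axis). Each mRNA is drawn up to its furthest site end, and PAR-CLIP AEG1 sites (red) cover most of that length. HITS-CLIP AEG1 sites (blue) are short and few, and grey marks the 2 control sites, on HNRNPA2B1 and HNRNPU. The HITS-CLIP replicates share 3 sites on HNRNPA2B1, 2 each on HNRNPU and SRRM2, and none on HNRNPL.

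Nearly all HITS-CLIP sites on these mRNAs lay under a PAR-CLIP site. This held for 42 of 45 replicate 1 sites (93.3%, exact 95% interval 81.7 to 98.6) and 30 of 32 replicate 2 sites (93.8%, 79.2 to 99.2), against 90.2% and 90.4% over all genes. Over both replicates it was 72 of 77 (93.5%), against 90.3%. The 5 without PAR-CLIP cover were the overlapping pair on HNRNPUL2, the site on HNRNPD at nt 357 to 399, and 19-nt sites on RBM15B and RBMS1. Of the 358 PAR-CLIP sites on the mRNAs with a HITS-CLIP site, 46 (12.8%) overlapped one, against 19.6% over all genes. Median site widths were 79 nt in PAR-CLIP and 53 and 52.5 nt in HITS-CLIP for these mRNAs, against 73 and 51 and 52 nt over all genes. The widest PAR-CLIP site, on SRRM2, spanned 1003 nt from nt 6008 to 7010.

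By their medians, HITS-CLIP sites lay nearer the 5′ end than PAR-CLIP sites. The median midpoint of the 877 PAR-CLIP sites, on 101 mRNAs, was at 0.517 of the length to the furthest site end. It was at 0.328 for 45 replicate 1 sites on 23 mRNAs and 0.360 for 31 replicate 2 sites on 19. All these mRNAs had a PAR-CLIP site. The sets of mRNAs are unlike, and PAR-CLIP positions on the mRNAs with HITS-CLIP sites alone were not computed. Over all genes the medians were 0.541 for PAR-CLIP and 0.400 and 0.405 for HITS-CLIP. Boundaries between coding sequence and untranslated regions were not used here.

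Scores could be compared only along 1 mRNA, since the authors' deposited log2 score appears to be relative to a constant of each mRNA. Of 77 HITS-CLIP sites on these mRNAs, 36 had a score within 0.001 of a score on the same mRNA in another library. That count was not made over all HITS-CLIP sites. The highest score in PAR-CLIP AEG1 exceeded the highest in either HITS-CLIP AEG1 replicate on 28 of the 28 mRNAs with both, where 83.9% of all 2050 mRNAs with both showed that order. The median difference, PAR-CLIP minus HITS-CLIP, was 2.56 on the log2 scale (range 0.41 to 5.06), against 1.42 over all mRNAs. With the median score of each mRNA's sites in place of the highest, the difference on these mRNAs was 0.585. That value was not computed over all mRNAs. A highest score is taken over more sites in PAR-CLIP than in HITS-CLIP, and the highest scores of the methods can lie at different places. Between overlapping sites the PAR-CLIP score was the lower at some, as on HNRNPU, HNRNPA3, RBM8A and RBM14-RBM4, and the higher at others. The libraries were not scaled to each other and PAR-CLIP was 1 library, so this sets library against library.

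The difference was largest on HNRNPL, with highest scores of 9.21 in PAR-CLIP AEG1 and 4.14 in each HITS-CLIP AEG1 replicate. HNRNPUL1 followed, at 8.88 in PAR-CLIP and 4.29 in HITS-CLIP replicate 2. HNRNPU had 8.09 in PAR-CLIP AEG1 and 4.52 and 3.94 in HITS-CLIP AEG1, against 1.35 in the PAR-CLIP control. Its HITS-CLIP values came from nt 602 to 698 and nt 614 to 717, where the overlapping PAR-CLIP site scored 2.35. The PAR-CLIP value of 8.09 came from nt 968 to 1719. SRRM2 had 9.14 in PAR-CLIP AEG1 and 6.58 and 5.58 in HITS-CLIP AEG1. The smallest differences were on RBM8A, a core protein of the exon junction complex, at 4.60 in PAR-CLIP and 4.20 in HITS-CLIP replicate 1, and on HNRNPA3, at 3.71 in PAR-CLIP and 1.97 and 3.19 in HITS-CLIP. HNRNPK showed the widest gap between the HITS-CLIP replicates, at 0.70 and 4.29. Over the 14 mRNAs in both replicates, replicate 1 was higher on 6 and lower on 6, and the median difference was 0.

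**Figure D4:**
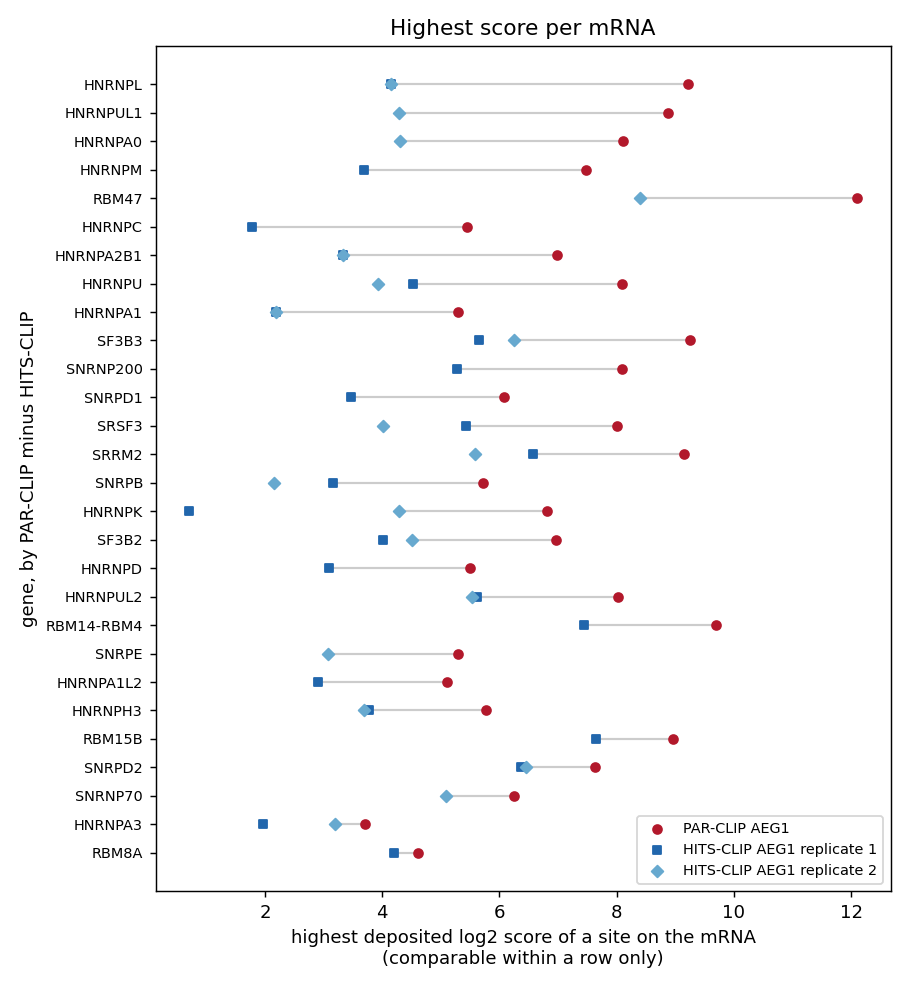
Highest deposited log2 score of a site (x axis) on each of the 28 mRNAs with both PAR-CLIP AEG1 and HITS-CLIP AEG1 sites (y axis, ordered by the difference), with circles for PAR-CLIP, squares for HITS-CLIP replicate 1 and diamonds for replicate 2. Scores compare within a row only. The circle lies to the right in all 28 rows, by 0.41 on RBM8A up to 5.06 on HNRNPL.

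Other spliceosome proteins and splicing regulators, listed by name outside the prefixes above, are given for comparison. Of 134 listed genes, 124 held a site in any library, and each of these held a PAR-CLIP AEG1 site, near the 97.6% of all genes. Sites in both HITS-CLIP AEG1 replicates were held by 8 of the 124 (6.45%, exact 95% interval 2.82 to 12.3, counting error only), beside 16.1% of all genes and 13.7% of the 102 mRNAs above, with no test made. KHSRP, which binds AU-rich RNA, held 14 PAR-CLIP and 1 and 1 HITS-CLIP sites. NONO, of paraspeckles, and PCBP1, a poly(C)-binding protein also called hnRNP E1, each held 10 PAR-CLIP and 1 and 1 HITS-CLIP sites. MBNL3, a muscleblind splicing regulator, held 52 PAR-CLIP sites, SON, a speckle protein, 31, and neither held a HITS-CLIP site. None of the 124 held a control site.

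Comparison groups, taken by the start of the gene symbol, spanned the value of the splicing and hnRNP mRNAs. The symbol start alone can also admit other genes, such as kinases named after a ribosomal protein or an initiation factor. Group membership was not checked further. The groups overlap in part with the other splicing genes above, which include EIF4A3 and several helicases, among them DDX23 and DHX15. Sites in both HITS-CLIP AEG1 replicates were held by 2 of 43 genes with DDX and DHX symbols (4.65%). The same held for 10 of 61 genes with EIF and EEF symbols (16.4%) and 43 of 94 with RPL and RPS symbols (45.7%). All genes of these 3 groups held a PAR-CLIP AEG1 site, with medians of 8, 7 and 3 sites per gene. The hnRNP family, at 40%, lay nearest to the RPL and RPS group, and the PRPF and RBM families, at 0, nearest to the DDX and DHX group.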

How the data were processed

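The deposited files hold sites called on RefSeq mRNAs in each library, with start, end and the authors' deposited log2 score, whose normalization is not given in any source used. Libraries were sequenced as 50-nt single reads, per the labels' protocols, and Bowtie is named without a version in the submitters' processing notes. The labels and files do not state the reference, site caller, threshold or use of controls.

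Starts were taken as 0-based and are printed 1-based. Presence in HITS-CLIP AEG1 required a site in each replicate, and sites overlapped when they shared at least 1 nt. Intervals are exact Clopper-Pearson 95% intervals over sites or genes, which are not independent replicates. Library values were compared by exact permutation, and no set test was made. Alternatives covered short sites (25 nt or less), scores above the median, stricter overlap or presence, and left-out libraries or genes. Symbols are those of the files. All 102 accessions were found in RefSeq's genes of GRCh38.p14, which served to check names. Calculations ran in Python 3.11.15 with scipy 1.17.1. The overlap routine was tested on simulated sites, and the permutation routine only on small hand-set values for its smallest p.

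Members, lists and tests were chosen with earlier results of these data known. Named genes are the 12 with most sites in both HITS-CLIP replicates, the 12 with most PAR-CLIP sites, the leading gene of each family, all with a control site and the leading 5 of the other splicing genes by either method. Others, such as SRSF3, HNRNPF and RBM8A, were named after their values were seen. Some genes picked by the rule are not reported here.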

Additional observations from a re-analysis of the deposited data

How the results depend on the processing

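Of 46 alternatives, 35 were classed as the same, 10 as moved and 1 turned the sign, all without a replicated test that could pass. For the differences tested over libraries, the same means only an unchanged sign and test outcome, whatever the size. The count of 14 mRNAs in both HITS-CLIP AEG1 replicates became 29 with either replicate, 6 with at least 2 sites in each, 0 with sites above the median score, and 20 to 23 with 1 replicate left out. Scores are not on one scale between mRNAs, and under that same score filter 59 of the 101 mRNAs kept a PAR-CLIP site and 0% of HITS-CLIP sites overlapped in the other replicate. The count of 8 other splicing genes became 21 with either replicate and 11 to 18 with 1 left out. The share difference of -0.475 percentage points between HITS-CLIP AEG1 and controls turned to 0.636 without the second control, and ranged from -1.59 to 0.636 when 1 library was left out. The difference of 37.5 sites ranged from 31 to 44 without 1 library, and fell to 1.5 with sites above the median score. The score difference of 2.56 was 0.585 with the median in place of the highest score per mRNA, and 2.58 to 3.12 with 1 replicate left out. The PAR-CLIP overlap share ranged from 93.3% to 93.8% with 1 replicate left out. With the replicate number as a block the difference was again 37.5 sites (exact sign-flip permutation, p = 0.5, the smallest that 2 pairs allow). Same-numbered HITS-CLIP libraries deviated with a correlation of -0.017 over 2253 genes. The controls held sites on only 49 and 78 genes, so this value cannot show whether the numbers pair the libraries. The main comparison treated them as unpaired. Leaving out genes with near-identical copies, or SRRM2, was added after seeing the data. It gave overlap shares of 46.4% and 45.5% beside 44.2%, and without the copies the count was 13 and the difference 33.5 sites. For the moved values the cause was not tested. Read depth is unknown, so an mRNA without a site cannot be read as unbound.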

Other observations

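Several of these mRNAs have near-identical copies, so a fragment may belong to either, and the labels and files do not state how such reads were handled. HNRNPA1L2 held 9 PAR-CLIP AEG1 sites and 1 and 0 HITS-CLIP AEG1 sites beside the 7, 3 and 1 of HNRNPA1, and HNRNPCL1 held 6 PAR-CLIP sites beside the 10 of HNRNPC. RBM14-RBM4, a readthrough of neighbouring genes, held 8 PAR-CLIP sites and 1 and 0 HITS-CLIP sites, beside 11 PAR-CLIP sites on RBM14 and 7 on RBM4, which held no HITS-CLIP site. RBMXL1 held 12 PAR-CLIP sites and RBMX 8. Values of these genes are uncertain.

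Older symbols kept 4 genes outside the name rule. They were HNRPDL (now HNRNPDL) with 12 PAR-CLIP AEG1 sites, HNRPLL (now HNRNPLL) with 5, LOC440563 (now HNRNPCL2) with 5 and C7orf64 (now RBM48) with 1, and none held a HITS-CLIP or control site. PRPF4B, with 13 PAR-CLIP sites, is now PRP4K and would leave the rule. With updated symbols 104 mRNAs held a PAR-CLIP site and the count in both HITS-CLIP replicates was 14.

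Of these mRNAs' sites, 3 of the 45 HITS-CLIP AEG1 replicate 1 sites (6.67%) and 3 of the 32 replicate 2 sites (9.38%) were 25 nt or shorter, against 6.80% and 7.01% of all sites of those libraries. In the HITS-CLIP controls 65% and 67.8% of all sites were that short.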
